A study of Mus musculus with 48 samples.

Results

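Yap1, its paralogue Wwtr1 (which encodes TAZ), the DNA-binding partners Tead1, Tead2, Tead3 and Tead4, the competing cofactor Vgll4 and the direct targets Ccn1, Ccn2 and Ankrd1 were followed through RNA sequencing of sorted immune cells from tumor-bearing mice. These 10 genes were chosen by symbol, as the core of YAP and TAZ transcription, out of 34932 genes with a transcript in the annotation used. B16F10 cells, a transplantable mouse melanoma line, were grown as subcutaneous tumors, and live cells were sorted from the tumor (tumor-infiltrating leukocytes, TILs) and from the tumor-draining inguinal lymph node (TDLN). The animals were young adult C57BL/6J mice, labelled WT or CD4Cre Yap flox. The second genotype, Yap-cKO below, carries loxP-flanked Yap alleles, a Cre-activated EYFP reporter and Cre driven by the Cd4 promoter, which is active in thymocytes while they carry both CD4 and CD8. T cells of both the CD4 and the CD8 lineage therefore inherit the deletion, and which exons are flanked by loxP is not given in the sources used here. Cells were collected in 3 gates (CD4+ T cells, CD8+ T cells, and the CD45+ remainder lacking both CD4 and CD8), which gives 12 groups of 4 libraries, 48 in all. No drug or other treatment was given, and every mouse carried the same tumor line. The labels number the replicates 1 to 4 in each group and do not say that each came from its own mouse, so p-values measure the spread between these libraries.

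YAP and TAZ are transcriptional coactivators without a DNA-binding domain of their own. The Hippo kinase cascade (MST and LATS kinases with their scaffold proteins) phosphorylates them and keeps them in the cytoplasm. When they enter the nucleus they bind TEAD proteins, which recognize short CATTCC motifs, and switch on genes such as Ccn1, Ccn2 and Ankrd1. VGLL4 has no DNA-binding domain either, and it competes with YAP for the TEAD surface. The pathway is best known in epithelial, mesenchymal and tumor cells, where YAP and TAZ are abundant, while T cells hold far less of their RNA.

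The libraries held 12656510 to 24213892 expected counts each, so that 3 counts, taken here as the detection floor, correspond to 0.124 to 0.237 CPM, the count scaled by library size and TMM factor. The sort markers fitted the gates. Cd8a stayed at or under 1.31 CPM in CD4+ TILs and Cd4 at or under 1.48 CPM in WT CD8+ TILs and 2.57 to 5.72 CPM in Yap-cKO CD8+ TILs, while Cd4 reached 104 to 471 CPM in WT CD4+ TILs and 573 to 858 CPM in Yap-cKO CD4+ TILs. Each of 10 melanoma genes (among them Mlana, Pmel, Tyr and Dct) was detected in every TIL library, and their summed level differed by genotype. The sum spanned 5819 to 18163 CPM in WT CD4+ TILs and 171 to 2398 CPM in Yap-cKO CD4+ TILs. In CD8+ TILs it was 3980 to 14318 CPM against 40.7 to 2597 CPM, and in CD45+ TILs 1084 to 1815 CPM against 123 to 503 CPM. Node libraries held 5.82 to 25.1 CPM, mostly of Dct and Pmel, while Sox10 was at 0 in 19 of 24 and Gpr143 in 20 of 24 of them. The summed level of 15 T cell genes moved the other way, from 1709 to 6581 CPM in WT to 6891 to 10735 CPM in Yap-cKO CD4+ TILs, and from 1848 to 5643 CPM to 6058 to 7408 CPM in CD8+ TILs. In bulk libraries like these, fewer cells of a type and less RNA per cell cannot be told apart. A further difference lay along the genotype. Each of 4 Y-linked genes was above 5 CPM in 18 of 18 WT libraries of replicates 1 to 3, in 0 of 6 WT libraries of replicate 4 and in 0 of 24 Yap-cKO libraries, where their sum reached at most 18.97 CPM.

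Yap1 lies on the minus strand of chromosome 9 (GRCm38 chr9:7931999-8004596, ENSMUSG00000053110.13) and its transcripts fall into a coding and a non-coding class that behaved differently here. The coding transcripts Yap1-201 (9 exons, 4171 bases) and Yap1-202 (8 exons, 4115 bases) differ by exon 6 of the first, a 48-base coding exon at chr9:7950492-7950539. They also differ in where they start, at chr9:8004596 for Yap1-201 and chr9:8004588 for Yap1-202. The retained-intron transcript Yap1-208 (2 exons, 5282 bases) reads through the end of the second exon of the coding transcripts into the intron behind it. The following GENCODE sequences, 5′ to 3′ on the gene's strand, show exon 6 and the 2 ways on from exon 2. In the lower pair, capitals mark the last 40 bases of the coding transcripts' exon 2 (chr9:8001457-8001496), and the lower-case bases are what follows in each transcript.
Exon 6 of Yap1-201: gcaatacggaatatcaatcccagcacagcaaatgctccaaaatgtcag
Exon 2 into exon 3, Yap1-201 and Yap1-202: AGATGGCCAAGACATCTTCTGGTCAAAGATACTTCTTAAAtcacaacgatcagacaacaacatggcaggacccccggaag
Exon 2 into the intron, Yap1-208: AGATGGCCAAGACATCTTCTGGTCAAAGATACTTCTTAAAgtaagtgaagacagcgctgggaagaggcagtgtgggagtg
The intron part of Yap1-208 (chr9:7996908-8001456) makes up 4549 bases, 86.1% of its length, and it holds no base shared with the spliced coding transcripts.

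Yap1 RNA was highest in WT TILs sorted as T cells and low in every node library. WT CD4+ TILs held 27.3, 21.6, 14.8 and 18.7 CPM, and Yap-cKO CD4+ TILs 1.63, 2.85, 5.58 and 2.38 CPM. WT CD8+ TILs held 17.0, 27.1, 13.0 and 24.7 CPM, and Yap-cKO CD8+ TILs 2.37, 4.06, 6.37 and 4.25 CPM. All 4 WT libraries lay above all 4 Yap-cKO libraries in each T cell gate. The fit gave a log2 fold change of −2.58 ± 0.44 (SE, n = 4 against 4, adjusted p = 0.00974) for CD4+ TILs and −2.21 ± 0.38 (adjusted p = 0.018) for CD8+ TILs. Without replicate 2 of Yap-cKO the CD8+ value was −2.19 with an adjusted p of 0.055. The CD45+ TILs, a gate that the Cd4-Cre deletion is not aimed at, had 5.32, 2.74, 4.28 and 4.22 CPM in WT, against 1.52, 1.92, 2.03 and 1.85 CPM in Yap-cKO. There too the genotypes did not overlap, with a log2 difference of −1.20 ± 0.29 that did not pass the test by edgeR (adjusted p = 0.0773) and passed it by DESeq2 (adjusted p = 0.00589).

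In the draining nodes the Yap1 levels of the genotypes overlapped in every gate. WT CD4+ cells had 2.12, 1.26, 1.28 and 2.04 CPM, against 1.39, 1.65, 2.47 and 2.34 CPM in Yap-cKO, a log2 difference of 0.23 ± 0.37 (adjusted p = 0.97). CD8+ cells had 2.59, 2.23, 2.09 and 2.37 CPM against 1.82, 1.13, 4.52 and 1.496 CPM, a log2 difference of −0.01 ± 0.47 (adjusted p = 0.999) whose sign depended on the library left out. CD45+ cells had 1.91, 2.12, 1.54 and 2.47 CPM against 1.70, 1.17, 2.31 and 2.11 CPM, a log2 difference of −0.14 ± 0.33 (adjusted p = 0.998). The targeted gene, measured as a whole, thus gave no check of the genotype in the node T cells. Ordered by mean over the 12 groups, Yap1 went from 20.6 CPM in WT CD4+ TILs and 20.4 CPM in WT CD8+ TILs to 4.26 CPM in Yap-cKO CD8+ TILs, 4.14 CPM in WT CD45+ TILs and 3.11 CPM in Yap-cKO CD4+ TILs, with the 6 node groups and the Yap-cKO CD45+ TILs between 1.68 and 2.32 CPM. Only 1 pair of neighbours in that order did not overlap, WT CD8+ TILs over Yap-cKO CD8+ TILs, and the exact permutation p of 0.0286 became 0.314 over the 11 pairs of neighbours, the least that a single separated pair could reach.

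Taken transcript by transcript, the difference between tissues and between genotypes lay mostly in the coding transcripts. Coding Yap1 transcripts summed to 22.5, 19.8, 12.3 and 16.3 CPM in WT CD4+ TILs and to 0, 0.88, 3.97 and 0.77 CPM in Yap-cKO CD4+ TILs. CD8+ TILs gave 12.8, 25.3, 9.05 and 22.02 CPM against 0.17, 0.67, 3.17 and 1.56 CPM. Group means with SD (n = 4) were 17.7 ± 4.41 against 1.41 ± 1.75 CPM in CD4+ TILs, 17.3 ± 7.62 against 1.39 ± 1.31 CPM in CD8+ TILs and 2.13 ± 0.552 against 0.646 ± 0.345 CPM in CD45+ TILs. None of these 3 pairs of groups overlapped, and each had an exact permutation p of 0.0286, the smallest that 4 against 4 allows, or 0.114 adjusted over 12 tests of transcript classes. No node library held more than 7.34 coding counts, and 14 of the 24 held 0. In CD4+ node cells 3 of 4 WT libraries and all 4 Yap-cKO libraries were at 0. The retained-intron class varied less, with group means of 1.12 to 3.08 CPM and exact permutation p-values between genotypes of 0.171 to 1.0. Its means were lower in Yap-cKO in each TIL gate, with overlap: 2.55 and 1.68 CPM in CD4+, 3.08 and 2.63 in CD8+, and 1.62 and 1.12 in CD45+ TILs.

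**Figure D1:**
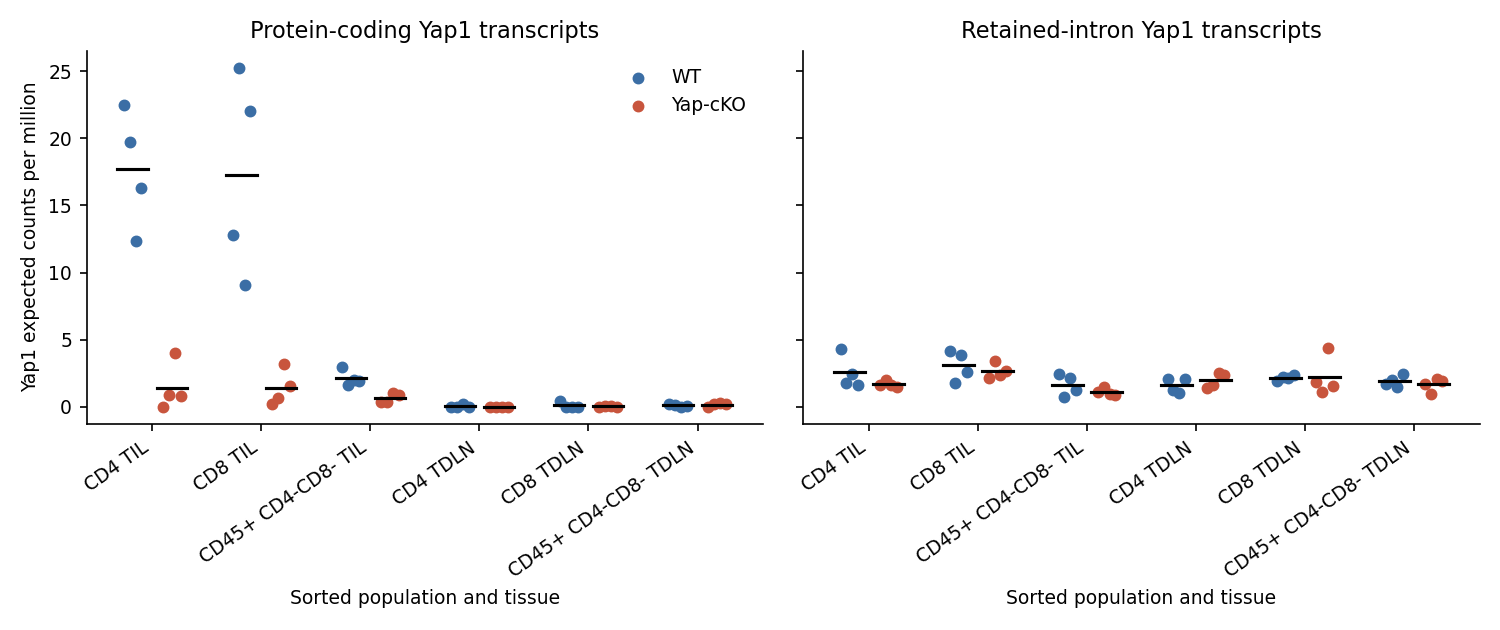
Yap1 level in CPM (vertical axis) in each of the 48 libraries by sorted population and tissue, for coding transcripts (left) and retained-intron transcripts (right); points are libraries, blue for WT and red for Yap-cKO, and lines the mean of 4. Coding transcripts reach 9.05 to 25.3 CPM in WT T cell TILs and are at or near 0 in nodes, while retained-intron transcripts have group means of 1.12 to 3.08 CPM in all 12 groups.

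Yap1-208 alone took 91.6 to 100% of the Yap1 counts in the node groups. Its share was 12.2% in WT CD4+ TILs and 14.1% in WT CD8+ TILs, against 55.1% and 60.8% in the Yap-cKO counterparts, 38.4% in WT CD45+ TILs and 61.1% in Yap-cKO CD45+ TILs. In absolute terms its group means stayed between 18.7 and 53.6 counts. Of the coding forms, Yap1-201 averaged 139.8 counts and Yap1-202 169.7 counts in WT CD4+ TILs, and 110.9 and 193.5 counts in WT CD8+ TILs. The share of the exon 6 form among the 2 ranged over 20.5 to 58.6% in WT CD4+ TILs and 27.0 to 47.2% in WT CD8+ TILs, so neither form dominated in every library. A library kit that does not mark strand, with quantification against transcripts, cannot tell an intronic Yap1 read in unspliced RNA from the annotated Yap1-208. With the retained-intron transcripts left out of the gene, an alternative added after the values were seen, Yap1 did not reach the count filter in any node genotype comparison. The tumor differences were then −3.67 ± 0.88 (adjusted p = 0.0273) in CD4+ TILs and −3.35 ± 0.76 (adjusted p = 0.0246) in CD8+ TILs.

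Coding Yap1 tended to be high in the T cell TIL libraries in which melanoma RNA was high, an order that CD45+ TILs did not keep. In WT CD4+ TILs the 4 libraries had the same order for both, from replicate 1 (18163 CPM of melanoma genes) through replicate 2 (13401 CPM) and replicate 4 (8256 CPM) to replicate 3 (5819 CPM). In WT CD8+ TILs replicate 3 was the lowest for both, while replicate 1 had the highest melanoma sum and not the highest coding Yap1. Yap-cKO replicate 3 had the highest melanoma sum of its genotype in both T cell gates (2398 and 2597 CPM) and also the highest coding Yap1 (3.97 and 3.17 CPM). Yap-cKO replicate 1 had the lowest melanoma sum (171 and 40.7 CPM) and the lowest coding Yap1 (0 and 0.17 CPM). In WT CD45+ TILs replicate 3 had the lowest melanoma sum (1084 CPM). Its coding Yap1 (2.02 CPM) was above that of replicates 2 and 4 (1.65 and 1.93 CPM). In Yap-cKO CD45+ TILs the melanoma sum was highest in replicate 4, and coding Yap1 in replicate 3 (1.03 CPM). Per 1000 counts of the 10 melanoma genes, coding Yap1 had a median of 1.73 counts in WT against 0.975 counts in Yap-cKO CD4+ TILs, 2.05 and 1.38 counts in CD8+ TILs, and 1.37 and 2.12 counts in CD45+ TILs. On the log2 scale, with 0.5 counts added above and below the line, the mean ratio differed by −1.22 (exact permutation p = 0.0857), 0.11 (exact permutation p = 0.886) and 0.61 (exact permutation p = 0.143). Yap-cKO CD4+ replicate 1 held 0 coding counts, so the added 0.5 set its log2 ratio of −12.6. The other libraries of its group lay at −10.1 to −9.23. Coding Yap1 and melanoma RNA were thus both lower in Yap-cKO TILs, and their ratio did not pass the test in any gate. With all Yap1 transcripts, the ratio was higher in Yap-cKO TILs, by 0.97, 1.95 and 1.27 on the log2 scale in the 3 gates, with an exact permutation p of 0.0571 in each. Medians were 1.94 and 3.02 counts per 1000 in CD4+, 2.24 and 5.85 in CD8+, and 2.65 and 6.11 in CD45+ TILs.

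**Figure D2:**
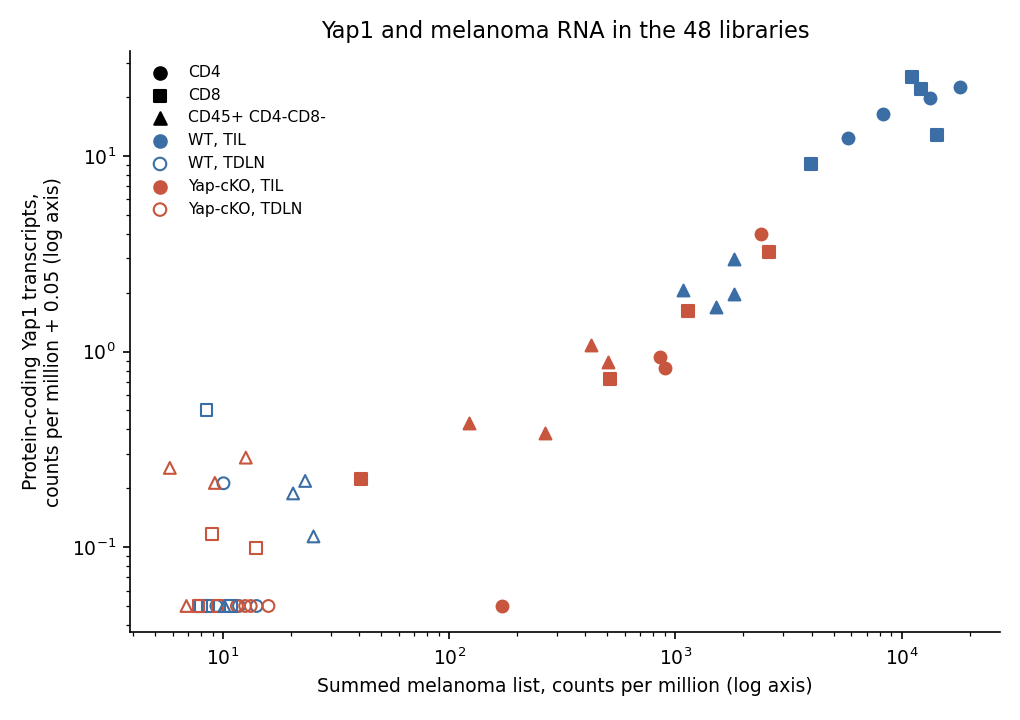
Coding Yap1 (vertical axis, CPM + 0.05, log axis) against the summed level of 10 melanoma genes (horizontal axis, CPM, log axis) in 48 libraries; blue is WT, red Yap-cKO, filled TIL, open TDLN, and the shape gives the gate. WT T cell TILs lie at the upper right with melanoma sums of 3980 to 18163 CPM, Yap-cKO TILs lie below and to the left of WT TILs of their gate, and nodes lie at 5.82 to 25.1 CPM.

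Stromal RNA moved with genotype as well. In CD4+ TILs the mean sum of 9 endothelial genes was 239 CPM in WT against 27.3 CPM in Yap-cKO, that of 8 fibroblast genes 294 and 28.4 CPM, and that of 8 pericyte genes 350 and 20.7 CPM. In CD8+ TILs the means were 541 and 9.87 CPM, 217 and 11.2 CPM, and 285 and 25.3 CPM. Per stromal count, coding Yap1 differed by −1.01 (exact permutation p = 0.629), −0.095 (exact permutation p = 0.943) and −0.96 (exact permutation p = 0.0571) in CD4+, CD8+ and CD45+ TILs. The CD4+ value rested on Yap-cKO replicate 1, where 0 coding counts gave a log2 ratio of −10.1. The other libraries of that group lay at −5.74 to −4.93. Medians in CD4+ TILs were 22.7 counts per 1000 in WT and 21.7 in Yap-cKO. All Yap1 transcripts gave 1.18, 1.74 and −0.30, with exact permutation p-values of 0.143, 0.0857 and 0.4. Neither ratio passed the test, and with 4 libraries a group none could fall under 0.0286. When the mean log2 level of the melanoma and stromal genes entered the fit as a covariate, no member passed in any TIL comparison and Yap1 stood at −0.83 in CD4+ and −0.90 in CD8+ TILs. Over all genes that fit called 2610 in CD4+ TILs and 0 in both CD8+ and CD45+ TILs, so the absence of calls in the latter gates holds for every gene tested (119 and 743 at an unadjusted p under 0.05 by edgeR). Genotype accounted for 83.8%, 82.8% and 86.6% of the variance of that covariate in CD4+, CD8+ and CD45+ TILs, so that the 2 terms cannot be told apart in this design.

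Of the 10 genes, 8 passed the count filter in CD4+ TILs and 5 of these were called lower in Yap-cKO mice, against 8.02% of all genes called in either direction and 6.66% called lower. In CD8+ TILs 7 of 8 were called lower, against 12.2% called and 9.14% called lower over all genes. In CD45+ TILs 1 of 7 was called, lower, against 0.991% and 0.925%. To be called, a gene had to change beyond 1 on the log2 scale with adjusted p below 0.05. Tead4 entered both T cell comparisons only through its WT libraries and could only come out lower. Leaving it aside, 4 of 7 and 6 of 7 were called. Tead3 and Ankrd1 did not reach 10 counts in 4 libraries and were not tested. The counts were not steady: in CD4+ TILs 1 member remained called without WT replicate 1, Yap-cKO replicate 2 or Yap-cKO replicate 4, and 2 without WT replicate 2. Yap1 was called in all 8 of those refits. In CD8+ TILs 4 were called without WT replicate 1 or WT replicate 2 and 0 without Yap-cKO replicate 2. The single call in CD45+ TILs was lost without any of the 7 libraries other than WT replicate 3. By the study's methods CD4+ and CD8+ TILs were both taken from every tumor, so the calls in these gates are not independent of each other.

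**Figure D3:**
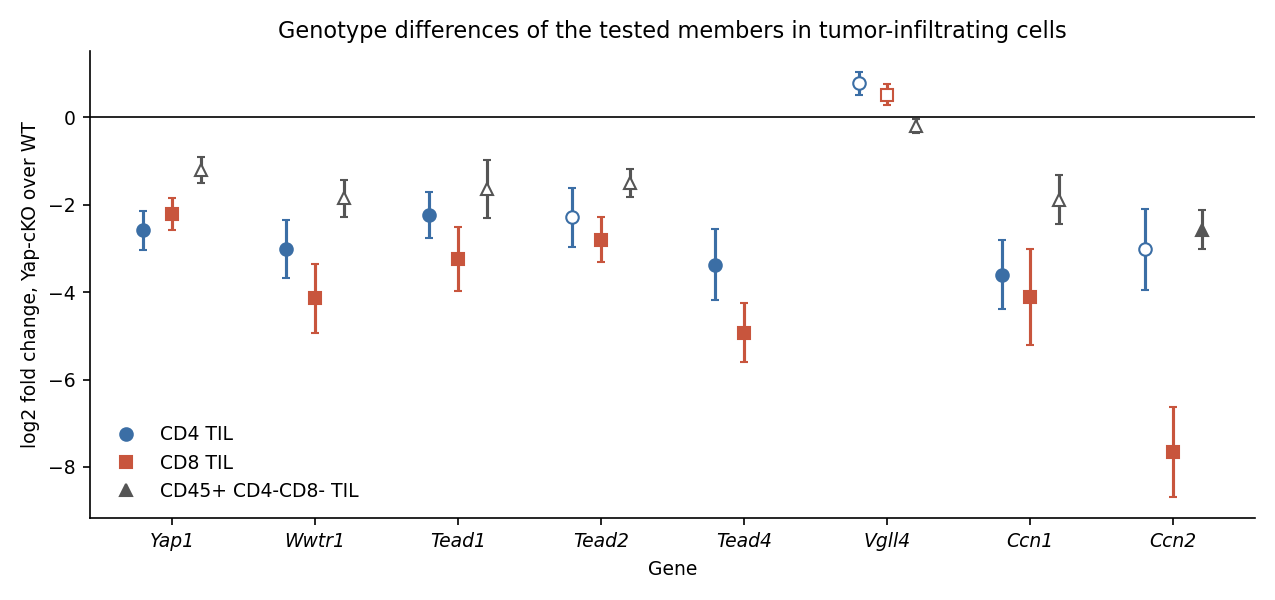
Log2 fold change, Yap-cKO over WT (vertical axis), with its SE for each tested gene in CD4+ TILs (circles), CD8+ TILs (squares) and CD45+ TILs (triangles), 4 libraries against 4; filled symbols were called. The filled symbols, 5, 7 and 1 in the 3 gates, all lie below 0, and Vgll4 lies above 0 in CD4+ and CD8+ TILs, a side that turns when libraries are scaled on T cell genes.

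Wwtr1 encodes TAZ, the second coactivator of the pathway (GRCm38 chr3:57455649-57575910). WT CD4+ TILs held 78.8, 49.3, 43.1 and 34.0 CPM and Yap-cKO CD4+ TILs 1.24, 4.94, 13.8 and 2.84 CPM. In CD8+ TILs it had 71.5, 162.7, 40.1 and 35.7 CPM against 0.64, 1.89, 9.40 and 5.03 CPM. Wwtr1 is not itself deleted in these mice. All WT libraries lay above all Yap-cKO libraries in both gates, with log2 fold changes of −3.01 ± 0.66 (adjusted p = 0.02) and −4.14 ± 0.79 (adjusted p = 0.0185). In CD45+ TILs WT libraries had 12.002, 7.39, 7.36 and 12.7 CPM, against 1.14, 1.67, 4.37 and 3.83 CPM in their Yap-cKO counterparts, again without overlap, at −1.85 and an adjusted p of 0.0665. Per 1000 melanoma counts, the median Wwtr1 count was 4.23 in WT against 5.76 in Yap-cKO CD4+ TILs, and 7.53 and 4.06 in CD8+ TILs, which is a description without a test. With the marker covariate the difference changed sign, to 0.17 in CD4+ and 0.50 in CD8+ TILs.

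The TEAD genes encode the DNA-binding partner in the complex, and they differed in level and in where they were found. Tead2 (chr7:45215753-45233644) was the one TEAD that reached 10 counts in most node libraries. Tead3, counted mostly on retained-intron transcripts, was at or under 3 counts in 5 of the 24 node libraries, Tead1 in 11 and Tead4 in 23. Tead2 held 13.1, 17.7, 13.7 and 10.9 CPM in WT CD4+ TILs and 0.84, 2.24, 6.60 and 0.61 CPM in the Yap-cKO counterpart, a difference of −2.28 ± 0.68 that did not pass the test (adjusted p = 0.0646). In CD8+ TILs it had 10.7, 16.2, 5.68 and 11.997 CPM against 0.75, 1.41, 3.04 and 1.01 CPM and was called, at −2.80 ± 0.51 (adjusted p = 0.018). In nodes Tead2 lay between 0.488 and 1.79 CPM in T cells and between 1.94 and 4.59 CPM in CD45+ cells. Its log2 difference between CD45+ cells and the mean of both T cell gates in WT nodes was 1.52 ± 0.30 (adjusted p = 0.00125), so the CD45+ gate carried more of it there.

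Tead1 (chr7:112679318-112906807) had 8.42, 3.44, 4.24 and 3.57 CPM in WT CD4+ TILs and 0.45, 0.66, 1.62 and 1.01 CPM in Yap-cKO CD4+ TILs. WT CD8+ TILs had 11.5, 7.32, 3.01 and 3.69 CPM and Yap-cKO CD8+ TILs 0.12, 0.65, 0.45 and 1.34 CPM. On the log2 scale it fell by 2.24 ± 0.53 (adjusted p = 0.0277) and fell by 3.25 ± 0.73 (adjusted p = 0.0235), without overlap of the groups. Tead4 (chr6:128224288-128300823) was rarer, at 3.95, 1.57, 1.47 and 0.96 CPM in WT CD4+ TILs and 0, 0.10, 0.42 and 0.15 CPM in Yap-cKO CD4+ TILs. Its log2 fold change there was −3.38 ± 0.81. No Yap-cKO T cell TIL library reached 10 counts of it, so its call is no independent sign of direction. In CD8+ TILs it had 3.35, 5.77, 1.25 and 2.48 CPM against no more than 3 counts in any Yap-cKO library, at least 19.7-fold lower when 3 counts per library are used as the floor. Tead3 (chr17:28331671-28350817) never passed 1.52 CPM in any library and was not tested between genotypes. Most of its counts were on retained-intron transcripts, at 66.2% in WT CD4+ TILs, 80.8% in WT CD8+ TILs and 91.4 to 100% in the node groups.

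Vgll4 (chr6:114860628-114969994), the member that competes with YAP, was the most abundant of the 10 in nodes. WT CD4+ TILs had 113, 109, 125 and 88.5 CPM, against 221, 136, 173 and 154 CPM in Yap-cKO. CD8+ TILs had 94.3, 111, 149 and 115 CPM against 235, 147, 132 and 146 CPM. The genotypes were separate in CD4+ TILs and overlapped in CD8+ TILs, and the log2 differences of 0.77 ± 0.26 (adjusted p = 0.0991) and 0.52 ± 0.24 (adjusted p = 0.157) did not pass the test. When libraries were scaled on 15 T cell genes in place of all genes, the sign turned, to −0.55 (adjusted p = 0.426) and −0.66 (adjusted p = 0.172). That scaling moved the median of all genes to −1.15 in both T cell TIL gates, from 0.14 in CD4+ and 0.078 in CD8+ TILs. It changed the split of called genes from 193 higher and 946 lower to 17 and 3395 in CD4+ TILs, and from 428 and 1291 to 5 and 5904 in CD8+ TILs. Yap1 had −4.12 (adjusted p = 0.00409) and −3.47 (adjusted p = 0.00415) on that scale. In CD45+ TILs Vgll4 had 70.8, 54.0, 59.7 and 45.0 CPM in WT, against 53.2, 46.9, 49.9 and 53.5 CPM in Yap-cKO, and in nodes it ranged from 97.7 to 431 CPM. Per 1000 melanoma counts its median went from 9.42 in WT to 165 in Yap-cKO CD4+ TILs.

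Ccn1 and Ccn2 encode secreted matricellular proteins and are the most used readouts of YAP and TAZ activity. Ccn1 (chr3:145646976-145649981) had 289, 93.5, 102 and 107 CPM in WT CD4+ TILs and 1.07, 10.03, 25.9 and 6.75 CPM in Yap-cKO CD4+ TILs, a called difference of −3.60 ± 0.79 (adjusted p = 0.021). In CD8+ TILs it had 171, 262, 43.5 and 120 CPM against 0.23, 1.19, 25.3 and 7.04 CPM, a called difference of −4.11 ± 1.10 (adjusted p = 0.0382). In both gates the WT libraries lay above every Yap-cKO library. CD45+ TILs had 17.5, 10.1, 11.6 and 23.4 CPM against 0.95, 4.45, 2.65 and 9.06 CPM, separate but not called (−1.89, adjusted p = 0.129).

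Ccn2 (chr10:24595442-24598683) had 78.9, 58.3, 64.4 and 42.8 CPM in WT CD4+ TILs and 1.24, 1.27, 22.8 and 1.62 CPM in Yap-cKO CD4+ TILs. The groups were separate, and the log2 difference of −3.02 ± 0.92 did not pass the test (adjusted p = 0.0722), with Yap-cKO replicate 3 far above its group. In CD8+ TILs it had 41.0, 283, 25.1 and 62.5 CPM against 0, 0.54, 0.80 and 0.56 CPM, the largest difference among the members at −7.66 ± 1.02 (adjusted p = 0.018). In CD45+ TILs it was the 1 member called, at 10.3, 12.7, 4.89 and 14.5 CPM against 0.69, 2.97, 1.82 and 1.72 CPM (−2.57 ± 0.45, adjusted p = 0.036). Per 1000 melanoma counts the medians of Ccn1 were 14.5 in WT and 9.16 in Yap-cKO CD4+ TILs, and 11.4 and 5.94 in CD8+ TILs. Those of Ccn2 were 4.77 and 4.53 in CD4+ and 5.71 and 0.400 in CD8+ TILs. Ankrd1 (chr19:36111961-36120099), which encodes a nuclear ankyrin-repeat protein, was at 6.69 CPM in 1 WT CD8+ TIL library, replicate 4, and at or under 0.672 CPM in all others.

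Some members shared the order of the Yap-cKO libraries. In both T cell gates Yap-cKO replicate 3 was the highest of its genotype for Wwtr1 and Ccn1, as it was for melanoma RNA, and Yap-cKO replicate 1 was the lowest for both. Tead1 in CD8+ TILs was highest in replicate 4, Tead2 in CD4+ TILs was lowest in replicate 4, and Vgll4 was highest in replicate 1 in both gates on the CPM scale. The part of tumor RNA in the members' levels was not tested beyond the ratios and the covariate above. WT replicate 4 was the WT replicate that missed the Y-linked cut of 5 CPM. In both T cell TIL gates it lay above all 4 Yap-cKO libraries for Yap1, Wwtr1, Tead1, Tead2, Tead3, Tead4, Ccn1 and Ccn2. For Tead3 the gap was small, at 0.503 against at most 0.456 CPM in CD4+ TILs. For Vgll4 it lay below all 4 in both gates. The share of all genes with such an order was not counted, so the order is not shown to be particular to the members. WT replicate 4 is a single library in each gate. The difference in Y-linked RNA therefore cannot be told apart from genotype, and its part was not tested.

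**Figure D4:**
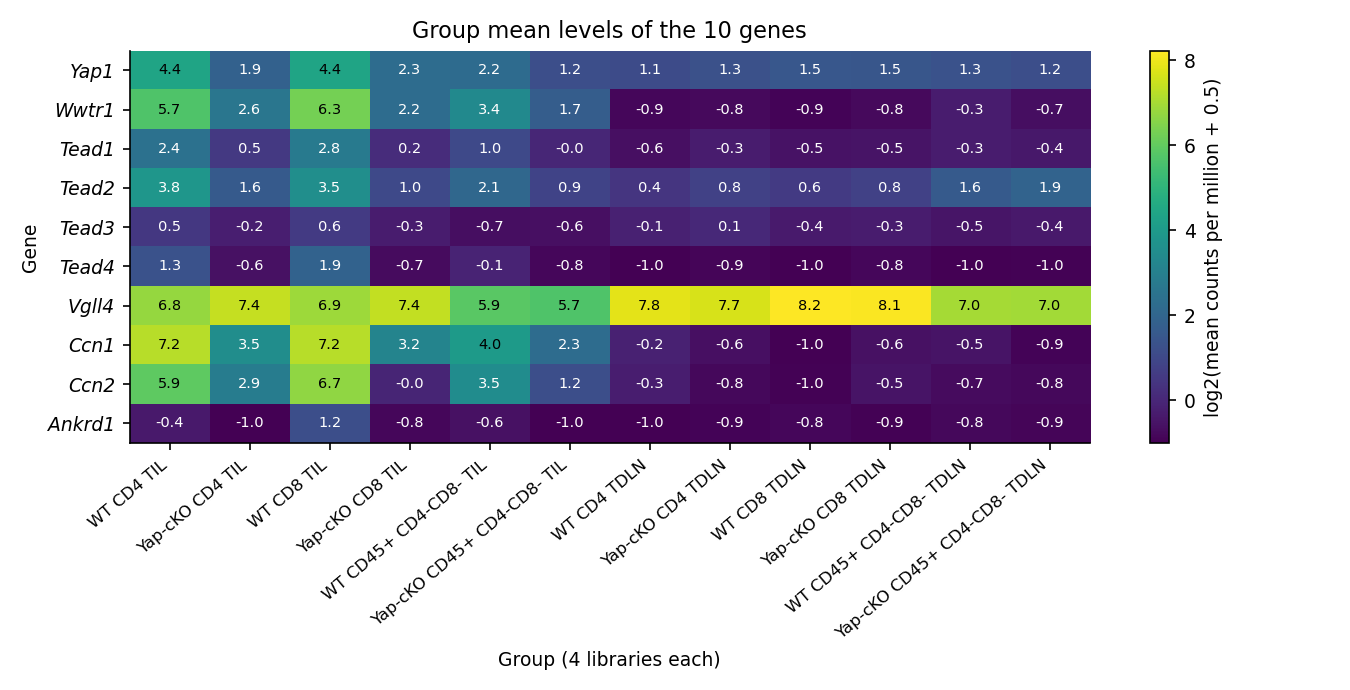
Level of each of the 10 genes (rows) in the 12 groups (columns), as log2 of the mean CPM of 4 libraries plus 0.5, printed in each cell and given by colour, brighter for higher. Yap1, Wwtr1, Ccn1 and Ccn2 are highest in WT T cell TILs, and Vgll4 is highest in node T cells on this scale. Set against T cell gene counts, Vgll4 was on average higher in tumor in WT T cells, with overlapping libraries and no test.

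Against the nodes, WT T cell TILs had higher group means of every member except Vgll4. Over all genes 37.3% were called between tumor and node in WT CD4+ cells, 37.7% in CD8+ cells and 39.9% in CD45+ cells, and of the tested members 8 of 9, 8 of 8 and 4 of 6 were called. Several members passed the count filter only through tumor libraries, which had to differ: Wwtr1, Tead1 and Tead4 in CD4+ cells, these and Ccn1 and Ccn2 in CD8+ cells, and Ccn1 and Ccn2 in CD45+ cells. Leaving these aside, 5 of 6, 3 of 3 and 2 of 4 were called. In CD45+ cells these 2 were Wwtr1, higher in tumor, and Vgll4, lower in tumor. Among these calls, Ccn1 and Ccn2 in CD4+ cells and Wwtr1 in CD45+ cells reached 10 counts in only 1 WT node library. They too passed the filter through the tumor libraries, so their calls are no independent sign of direction. With all tested members, the counts fell to 4 or 5 in CD4+ cells when any WT TIL library was left out, to 3 in CD8+ cells likewise, and to 2 in CD45+ cells without WT TIL replicate 1, 3 or 4, mainly where 4 libraries no longer reached 10 counts. The value of 4 in CD4+ cells also came from Vgll4, whose log2 fold change passed under 1 in size without WT TIL replicate 2 or 4 (−0.996 and −0.94). Of the members measured in both tissues, Yap1 was higher in tumor by 3.61 ± 0.34 (adjusted p = 6.46e-06) in CD4+ and 3.17 ± 0.36 (adjusted p = 4.69e-05) in CD8+ cells on the log2 scale. Tead2 was higher by 4.02 and 3.54. Vgll4 differed by −1.07 (adjusted p = 0.0105) in CD4+, −1.32 (adjusted p = 0.00764) in CD8+ and −1.17 in CD45+ cells, lower in tumor per total count. Per T cell gene count Vgll4 was higher in tumor, by 0.52 in CD4+ and 0.40 in CD8+ cells on the log2 scale. Its tumor and node libraries overlapped in both gates on that measure, and no test was run. Yap1 was then higher by 5.12 and 4.74. In CD45+ cells Yap1 differed by 1.00 ± 0.32 (adjusted p = 0.0252), under the fold needed for a call. With 3 counts per library as the floor in nodes, the tumor mean of Wwtr1 was at least 313-fold higher in CD4+ and at least 426-fold higher in CD8+ TILs. In CD8+ TILs the mean of Ccn1 was at least 822-fold higher, over libraries of 43.5 to 262 CPM. That of Ccn2 was at least 567-fold higher, over libraries of 25.1 to 283 CPM. In CD45+ TILs the mean of Ccn2 was at least 66.7-fold higher.

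In the nodes themselves the genes other than Yap1, Tead2 and Vgll4 were at or under 14 counts, or 0.784 CPM, in every one of 24 libraries. Of all genes tested, 0.0462%, 0.0158% and 0.0596% were called between genotypes in CD4+, CD8+ and CD45+ node cells. The 3 members tested there, Yap1, Tead2 and Vgll4, gave 0 calls in each gate by edgeR. Per length, Vgll4 led the nodes, with Tead2 at 2.9 to 9.1 and Yap1 at 0.47 to 0.77 TPM (group means), the level scaled by transcript length. In WT CD4+ and CD8+ TILs mean TPM was 107 and 118 for Ccn1, 39.0 and 72.5 for Ccn2, 15.2 and 25.7 for Wwtr1, and 8.83 and 8.39 for Yap1.

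A test of whether the genotype difference itself differed between tumor and node found 1 member in CD4+ cells, Yap1 (−2.81 ± 0.55, adjusted p = 0.0237), against 1.36% of all genes. In CD8+ cells it found Ccn2 (−10.84, adjusted p = 0.04), against 0.422% of all genes. Ccn2 had at most 10 counts in any node library, so the size of that value depends on the prior count of the fit. In CD45+ cells 0 genes were called (0% of all genes), with 1246 at an unadjusted p under 0.05 and 119 called by DESeq2. The Yap1 interaction rested on single libraries: no member was called in CD4+ cells without WT node replicate 2, Yap-cKO node replicate 3 or 4, WT TIL replicate 1 or 2, or Yap-cKO TIL replicate 4, while 2 were called without WT node replicate 4 and 4 without Yap-cKO TIL replicate 3. In CD8+ cells 0 were called without any WT node library, Yap-cKO node replicate 3 or 4, or Yap-cKO TIL replicate 1, 2 or 4. There 2 were called without WT TIL replicate 3 or 4, and 5 without Yap-cKO TIL replicate 3. With the retained-intron transcripts left out, the CD4+ Yap1 interaction was −0.04 (adjusted p = 0.872), a value set by node groups at or near 0 counts.

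Among WT TILs, the CD45+ gate held less of the members than the T cell gates. Compared with the mean of CD4+ and CD8+ TILs, 8 of 9 tested members were called, all lower in CD45+ TILs, against 34.3% of all genes. This fit did not pair same-numbered libraries of the gates, so its SEs and p-values treat them as independent. Tead3 and Tead4 reached 10 counts in 0 and 1 of the CD45+ libraries and so entered through the T cell gates, where they were high; of the 7 others 6 were called. Yap1 differed by −2.22 ± 0.28 (adjusted p = 2.24e-05), Ccn1 by −3.15, Ccn2 by −2.79, Wwtr1 by −2.58, Tead3 by −2.62, Tead4 by −2.41, Tead1 by −1.78 and Tead2 by −1.67. The Tead3 counts were mostly on retained-intron transcripts, at 66.2%, 80.8% and 100% in WT CD4+, CD8+ and CD45+ TILs. Vgll4 differed by −0.90 (adjusted p = 0.00122), under the fold needed. The melanoma sum was lower in the same gate, with a mean of 1555 CPM in CD45+ TILs against 11410 CPM in CD4+ and 10389 CPM in CD8+ TILs. In WT nodes, where 25.2% of all genes were called, Tead2 was higher in the CD45+ gate, Vgll4 lower (−1.05 ± 0.32, adjusted p = 0.0219) and Yap1 at 0.04 (adjusted p = 0.94). Of these 2 node calls, 1 was lost when any of 7 libraries was left out.

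Other genes of the pathway gave a mixed picture. Of further YAP and TAZ targets, 7 of 18 tested were called lower and 1 higher in Yap-cKO CD4+ TILs, 3 of 16 lower in CD8+ TILs and 1 of 16 lower in CD45+ TILs. Over all genes 6.66%, 9.14% and 0.925% were called lower in these gates. The median log2 fold changes of the targets were −1.86, −0.54 and 0.41, beside medians of 0.14, 0.078 and 0.015 over all genes tested. Amotl2, a target that binds YAP in return, fell by 2.83 (adjusted p = 0.00861) in CD4+ and fell by 2.75 (adjusted p = 0.031) in CD8+ TILs. Arhgef17, also on the target list, stood at −4.90 in CD4+ and −4.71 in CD8+ TILs. It entered only through the WT libraries, with 7 and 6 counts at most in the Yap-cKO libraries, and could only come out lower. The counts of targets called lower in both T cell gates include it. Igfbp3, which binds insulin-like growth factors, fell by 5.93 (adjusted p = 0.019) in CD8+ and fell by 2.24 (adjusted p = 0.0314) in CD45+ TILs, and stood at −2.47 (adjusted p = 0.228) in CD4+ TILs. The 1 target called higher in CD4+ TILs, named after its value was seen, was Gadd45b, a stress-induced gene (1.92, adjusted p = 0.0256). In CD8+ TILs the call of Amotl2 was kept in 3 of 8 refits that each left out 1 library, and in CD45+ TILs that of Igfbp3 in 1 of 8.

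Of the upstream Hippo genes, 4 of 16 were called lower in CD4+ TILs, 3 lower and 1 higher of 15 in CD8+ TILs, and 0 of 15 in CD45+ TILs, with medians of −0.21, −0.15 and 0.37. Beside these and the marker lists below stand 6.66%, 9.14% and 0.925% of all genes called lower in CD4+, CD8+ and CD45+ TILs. Wwc2, a scaffold of the cascade, fell by 2.26 (adjusted p = 0.00861) and fell by 2.17 (adjusted p = 0.0203) in CD4+ and CD8+ TILs. Amotl1, an angiomotin that tethers YAP, fell by 3.06 (adjusted p = 0.00861) and fell by 3.03 (adjusted p = 0.019). In CD8+ TILs 4 of 8 such refits kept the call of Wwc2 and 5 of 8 that of Amotl1. The gene called higher, named after its value was seen, was Stk4, which encodes the kinase MST1 (1.19, adjusted p = 0.0333, in CD8+ TILs). Vgll3, the 1 other TEAD cofactor tested, was called in CD4+ TILs (−2.97, adjusted p = 0.018) and not in CD8+ (−1.95, adjusted p = 0.0835) or CD45+ TILs (−1.64, adjusted p = 0.108). In node cells 0 of 9, 0 of 9 and 0 of 11 targets were called, against 0.0462%, 0.0158% and 0.0596% of all genes. The marker lists moved in the same T cell comparisons: 7 and 4 of 10 melanoma genes, 3 and 9 of 9 endothelial genes, and 6 and 7 of 8 pericyte genes were called lower in CD4+ and CD8+ TILs. So were 4 of 6 fibroblast genes in each, while 6 of 8 myeloid genes were called higher in CD8+ TILs, where their mean sum was 1337 CPM in Yap-cKO against 455 CPM in WT. Over all genes, 428 of 14121 were called higher in CD8+ TILs.

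Since most members moved together, their promoters were searched for the TEAD motif GGAATG or its complement CATTCC, on both strands, in the 250 bases before each RefSeq start (GRCm38.p6). Windows were at hand for 7 of the 10 genes, with 10 windows in all. Of the 10 windows, which overlap for some genes, 8 held a match, as did 12.6% of 32851 windows of all genes. The longer form AGGAATG or CATTCCT, of which the shorter is a part, was in 6 of the 10 windows and in 4.51% of all windows. A match is a description of letters, not a binding site. The windows of Yap1, Wwtr1, Ccn1 and Vgll4 are shown. Yap1, Wwtr1 and Ccn1 were called lower in Yap-cKO T cell TILs, while Vgll4 was not called and its sign turned with the scaling. Whether the motif goes with the direction of a gene was not tested. Each window runs 5′ to 3′ on the minus strand, on which all 4 genes lie, with the match in capitals.
Yap1, chr9:8004597-8004846: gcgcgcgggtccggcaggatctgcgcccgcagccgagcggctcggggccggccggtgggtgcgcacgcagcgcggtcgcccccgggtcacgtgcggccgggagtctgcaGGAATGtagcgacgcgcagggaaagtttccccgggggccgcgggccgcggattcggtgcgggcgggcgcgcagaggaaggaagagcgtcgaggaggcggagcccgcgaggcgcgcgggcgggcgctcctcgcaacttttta
Wwtr1, chr3:57575911-57576160: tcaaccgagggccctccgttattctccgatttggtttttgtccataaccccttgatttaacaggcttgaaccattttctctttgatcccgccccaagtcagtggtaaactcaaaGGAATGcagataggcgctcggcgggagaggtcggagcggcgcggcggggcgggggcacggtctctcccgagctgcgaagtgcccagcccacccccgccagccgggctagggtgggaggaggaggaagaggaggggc
Ccn1, chr3:145649986-145650235: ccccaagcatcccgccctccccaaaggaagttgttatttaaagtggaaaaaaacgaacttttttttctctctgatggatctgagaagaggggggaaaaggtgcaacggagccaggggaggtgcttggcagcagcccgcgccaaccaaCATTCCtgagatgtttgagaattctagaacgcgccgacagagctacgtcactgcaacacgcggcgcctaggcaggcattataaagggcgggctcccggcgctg
Vgll4, chr6:114969204-114969453: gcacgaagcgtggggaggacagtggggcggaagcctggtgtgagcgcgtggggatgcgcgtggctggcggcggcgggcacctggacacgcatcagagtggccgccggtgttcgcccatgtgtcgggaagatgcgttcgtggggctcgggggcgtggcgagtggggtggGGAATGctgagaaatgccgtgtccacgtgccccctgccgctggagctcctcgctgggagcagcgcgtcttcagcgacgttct
The first base of the match lies at −141 for Yap1, −136 for Wwtr1, −103 for Ccn1 and −82 for Vgll4, where −1 is the base just before the start. Yap1, Wwtr1 and Ccn1 carry the longer form and Vgll4 the shorter one only. Ankrd1 had matches at −210 and −123, Tead3 in 2 of its 3 windows, and Tead2, which was lower in Yap-cKO CD8+ TILs, had none.

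The genes whose group means were most like those of Yap1 were sought by Pearson correlation of log2(CPM + 0.5) over the 12 groups, among 13300 genes, as a description. They were Prickle2 (r = 0.994), Dzip1l (0.990), Tln2 (0.990), Lrrn4cl (0.988), Nr2f2 (0.988), Frzb (0.988), Bnc2 (0.987) and Adamts20 (0.987). The 12 points share their libraries and their melanoma and stromal content. Of the members, Tead1 ranked 110 (r = 0.968), Wwtr1 522, Ccn1 530, Ccn2 549, Tead2 720 and Vgll4 8265 (r = −0.24), and the others were under the level needed. The 10 melanoma genes ranked from 123 (Gpr143, r = 0.967) to 1223 (Tyrp1), and the pericyte gene Myh11 ranked 98, above every member.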

How the data were processed

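Cells were sorted from tumors and draining nodes, and libraries were made with SMART-Seq v4, which does not mark strand. According to the submitters' processing notes the tools were FastQC, Trimmomatic and Salmon 0.9.1, with mm10 as the build. The authors deposited, per library, Salmon's estimated counts and TPM for 112092 transcripts. They were summed per gene over the 111787 transcripts that matched GENCODE M21 (GRCm38), giving 34932 genes, and the unmatched share was 0.0488 to 0.18% of counts. Summed expected counts were rounded to whole numbers. TPM, which the authors deposited as Salmon scales them within a library, served only to set genes side by side.

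Genes reaching 10 counts in 4 or more libraries of a comparison were tested by edgeR 4.0.16 (R 4.3.3) with TMM factors, the quasi-likelihood test and Benjamini-Hochberg adjustment over all tested genes. Calls used the study's thresholds, a log2 fold change beyond 1 in either direction with adjusted p below 0.05. SEs are the log2 fold change over the root of F. CPM use TMM factors over all 48 libraries. Single values were compared by two-sided exact permutation tests, in which 4 against 4 cannot go below 0.0286. Fold bounds set the mean CPM of the higher group against 3 counts per library. These 3 counts were scaled by library size without the TMM factor that CPM carry, so the bounds are approximate. The floor covers counting error only and not the spread between libraries. The 72 pairs of libraries within groups held 0 identical pairs. No column of another sample was in the files (0 columns), and no comparison made by the authors was used.

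The members and the lists were chosen with earlier results of these data known. Pathway genes outside the 10 were named if called in both T cell TIL comparisons or in CD45+ TILs, at most 8 per list, and the 8 genes most like Yap1 came from those with a mean of at least 1 CPM. Alternatives were DESeq2 1.42.0, no count filter, transcript length offsets, T cell gene scaling, a marker covariate and a replicate block. Others were 1 fit of all libraries, calls by adjusted p alone and leaving out each library. Those without retained-intron transcripts and with coding Yap1 only were added after seeing the data. Same-numbered WT TIL libraries of the 3 gates deviated together (correlations of deviations from group means from 0.112). The values given for that comparison come from the fit without a block, which treats these libraries as independent. With the number as a block no call of a member changed there, and 5274 of all genes were called, against 5125 without it. On simulated counts with known changes of 2 on the log2 scale, edgeR called 47.7% of changed genes for the CD4+ TIL design (13946 genes) and 88.9% for the CD4+ node design (12709 genes).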

Additional observations from a re-analysis of the deposited data

Results flagged for a closer look

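A library was flagged where its gap to the nearest library of its group took up more of the group's range than Dixon's critical value at 95% allows for 4 samples; 78 groups were screened, 8 libraries stood apart, and chance alone flags about 1 in 20 groups. In WT CD4+ TILs replicate 1 stood apart for Tead1 (8.42 CPM, next 4.24 CPM) and for Ccn1 (289 CPM, next 107 CPM). In WT CD8+ TILs replicate 2 stood apart for Ccn2 (283 CPM, next 62.5 CPM) and replicate 4 for Ankrd1 (6.69 CPM, next 0.341 CPM). WT CD45+ TILs had Tead2 low in replicate 2 (3.02 CPM, next 3.82 CPM) and Ankrd1 in replicate 4 alone (0.672 CPM, the others at 0). In Yap-cKO TILs, Ccn2 was high in CD4+ replicate 3 (22.8 CPM, next 1.62 CPM), the library with the highest melanoma sum of its group at 2398 CPM. Vgll4 was high in Yap-cKO CD8+ replicate 1 (235 CPM, next 147 CPM), the library with the lowest melanoma sum at 40.7 CPM.

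The genotype difference itself differed between tumor and node for Yap1 in CD4+ cells, by −2.81 on the log2 scale, and for Ccn2 in CD8+ cells, by −10.84, both by the interaction test. Each was lost when single libraries were left out.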

How the results depend on the processing

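The tally here leaves out the refits without single libraries, which are given below, and includes calls by adjusted p alone. Of the summary values (Yap1 and the counts of members called), 134 kept their direction and their side of the threshold or stayed within 1.5 times. Further, 22 counts moved more, 3 values lost significance, 2 gained it and 4 changed sign. Of the values of single genes 350 kept both, 41 lost significance and 8 changed sign. With the marker covariate 0 members were called in CD4+, CD8+ and CD45+ TILs, where 2610, 0 and 0 of all genes were. Yap1 stood at −0.83 and −0.90, and the sign turned for Wwtr1 (0.17) and Tead4 (0.45) in CD4+ TILs and for Wwtr1 (0.50), Ccn1 (1.11), Amotl2 (0.63), Arhgef17 (1.19), Wwc2 (0.23) and Amotl1 (0.16) in CD8+ TILs. DESeq2 called 5 members in CD45+ TILs, with Yap1 at −1.20, and 3, 6 and 1 in the CD4+, CD8+ and CD45+ interactions. Without the count filter these were 2 in CD45+ TILs, and 2 and 5 in the CD4+ and CD8+ interactions. One fit of all 48 libraries gave 0 in CD45+ TILs, 7 for tumor against node in WT CD45+ cells, and 2 and 5 in the interactions. Length offsets gave 2 in the CD4+ interaction, 0 for sorted WT node cells and 0.15 for Yap1 in CD8+ nodes. Without retained-intron transcripts 0 were called in the CD4+ interaction and 1 among sorted WT node cells. Over all genes, calls by edgeR and DESeq2 numbered 1139 and 2142 in CD4+, 1719 and 2577 in CD8+ and 135 and 531 in CD45+ TILs, 6 and 21, 2 and 15, and 8 and 16 in the nodes, and 205 and 842, 63 and 719, and 0 and 119 for the interactions.

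With the replicate block 0 members were called in CD8+ TILs (Yap1 −2.26, adjusted p = 0.0953), 0 in CD45+ TILs, 0 in the CD8+ interaction and 1 among sorted WT node cells. Over all genes the block left 1 call in CD8+ and 1 in CD45+ TILs. Same-numbered WT node libraries of CD4+ and CD8+ cells deviated together (correlations from 0.384 to 0.786), and those of CD45+ node cells did not with either (from −0.447 to 0.270). Between genotypes and between tissues the numbers did not go together in every pair, so there they are not known to pair the samples.

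Leaving out 1 library at a time gave 1 to 7, 0 to 7 and 0 to 1 members called in CD4+, CD8+ and CD45+ TILs and 0 in nodes. In the TIL gates the count stayed within 1.5 times its main value in 4, 5 and 1 of 8 such refits. Yap1 ran from −3.08 to −2.36, −2.45 to −2.01 and −1.34 to −1.05 in the TILs, and from 0.098 to 0.38, −0.67 to 0.22 and −0.26 to 0.018 in the nodes. Its sign turned in CD8+ nodes (0.046, 0.11, 0.22, 0.031 and 0.16) and in CD45+ nodes (0.018). Members called were 4 to 8, 3 to 8 and 2 to 5 for tissue, 0 to 4, 0 to 5 and 0 for the interactions, and 7 to 9 and 1 to 2 for sorted cells of tumor and node. The tissue counts drop mainly where 4 libraries no longer reach 10 counts. Yap1 per melanoma count ran from 0.51 to 1.20, 1.00 to 2.53 and 0.94 to 1.53, and per stromal count from 0.79 to 1.55, 1.26 to 2.33 and −0.51 to −0.11. Coding Yap1 only gave −1.22 per melanoma count in CD4+ TILs and −1.01 and −0.095 per stromal count in CD4+ and CD8+ TILs. Both CD4+ values include Yap-cKO replicate 1, whose 0 coding counts left its ratio to the added 0.5. By mean log2 level, Yap1 per melanoma gene in CD45+ TILs differed by 1.24 (exact permutation p = 0.0286).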
